A study of Homo sapiens with 12 samples.

Results

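The Nutlin-3a response of HCT116 cells was described from 4 of the 12 arrays of the series, the 2 arrays of HCT116 cells given Nutlin-3a and the 2 arrays of untreated HCT116 cells. HCT116, SW48 and RKO are human colorectal carcinoma cell lines, and the labels give all of them as wild type for p53. The HCT116 groups were cells given 10 µM Nutlin-3a for 8 h (2 arrays) and cells kept untreated (2 arrays), and SW48 and RKO had the same pair of groups with 2 arrays each. The SW48 and RKO arrays also entered the estimate of each gene's spread, and so the standard errors, p-values and calls. RNA was hybridised to Affymetrix Human Gene 2.0 ST arrays, on which a probe set reads the transcripts of a locus. Members were all probe sets that the platform's annotation pairs with 1 gene symbol, 14530 of the 37270 in the table, and they gave 14118 genes. Values are the deposited log2 expression values, so a difference of 1 is a 2-fold change. Established cell lines were used, and each HCT116 value comes from this 1 line. The labels speak of duplicates but not of separate cultures, so p-values measure only the spread between these samples, which may be technical.

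p53 is a transcription factor that is kept low in unstressed cells by MDM2, a ubiquitin ligase that binds its activation domain. Nutlin-3a occupies the p53-binding pocket of MDM2, so p53 accumulates without DNA damage. Accumulated p53 switches on genes of cell cycle arrest, apoptosis, metabolism and its own feedback, and genes driven by E2F and the RB family are known to fall once cyclin-dependent kinases are inhibited. Genes without a named probe set are not analysed here, and these include MDM2 and CDKN1A.

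Some label entries disagree with the rest. RNA extraction is described for thyroids, culture conditions are given for HCT116 and not for the other lines, and Cy3 is entered as the label beside a protocol for biotin. All 7 measured epithelial markers (EPCAM, KRT8, KRT18, KRT19, CLDN4, CLDN7 and ESRP1) had mean levels between 7.33 and 11.3 on the Nutlin-3a arrays and between 7.10 and 11.4 on the untreated arrays. The 7 measured thyroid markers (TG, TSHR, PAX8, NKX2-1, FOXE1, DUOX2 and IYD) lay between 4.17 and 6.19 on the Nutlin-3a arrays and between 4.31 and 6.24 on the untreated arrays, and 0 of them were called. Array values have no true 0, and the median of a column was between 4.97 and 5.05. Over all probe sets, the 2 Nutlin-3a arrays correlated at r = 0.997 and the 2 untreated arrays at r = 0.997, and a Nutlin-3a array with an untreated array at 0.995 to 0.996. The median absolute difference was 0.097 within the Nutlin-3a pair, 0.090 within the untreated pair and 0.110 to 0.123 between the treatments.

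Nutlin-3a changed 721 of the 14118 genes in HCT116 cells (5.11%), with 435 higher (3.08%) and 286 lower (2.03%). A gene was called where its adjusted p was under 0.05, from limma with Benjamini-Hochberg adjustment over all genes tested and n = 2 arrays per group. The spread of a gene was estimated jointly over the 6 groups of all 12 arrays. The larger changes were rises: 32 genes were called and at least 2-fold higher (0.227%), against 3 called and at least 2-fold lower (0.0212%). Of the calls under 0.5 on the log2 scale, 253 were higher and 224 lower. The median log2 fold change was 0.45 over the genes called higher, -0.37 over those called lower and -0.01 over all genes. All 721 called genes had non-overlapping treatments, with each Nutlin-3a array above (or below) each untreated array. Genes that were not called could separate in this way too, MIR34A (limma adjusted p = 0.364) among them. The share of all genes that separated is not given here, so separation, here and below, adds no support to a call. Of the calls 60.3% were higher, and 72.3% were higher where each array was first centred on its median. Leaving out 1 HCT116 array gave 341 calls without Nutlin-3a replicate 1, 308 without Nutlin-3a replicate 2, 260 without untreated replicate 1 and 334 without untreated replicate 2. The genes called in all of these fits numbered 204, of which 151 were higher and 53 lower, and the 32 rises and 3 falls of at least 2-fold were among them. With the 4 HCT116 arrays fitted alone 208 genes were called, and 12 genes named below that kept their calls without each HCT116 array lost them in that fit (limma adjusted p from 0.052 to 0.0765). These were FHDC1, CLSPN, UHRF1, GINS2, SLBP, GPX1, LIF, MXD4, CCNG1, HBEGF, PLXNB2 and ZNF385A. In RNA from whole cultures, fewer cells of a type and less RNA per cell cannot be told apart.

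**Figure D1:**
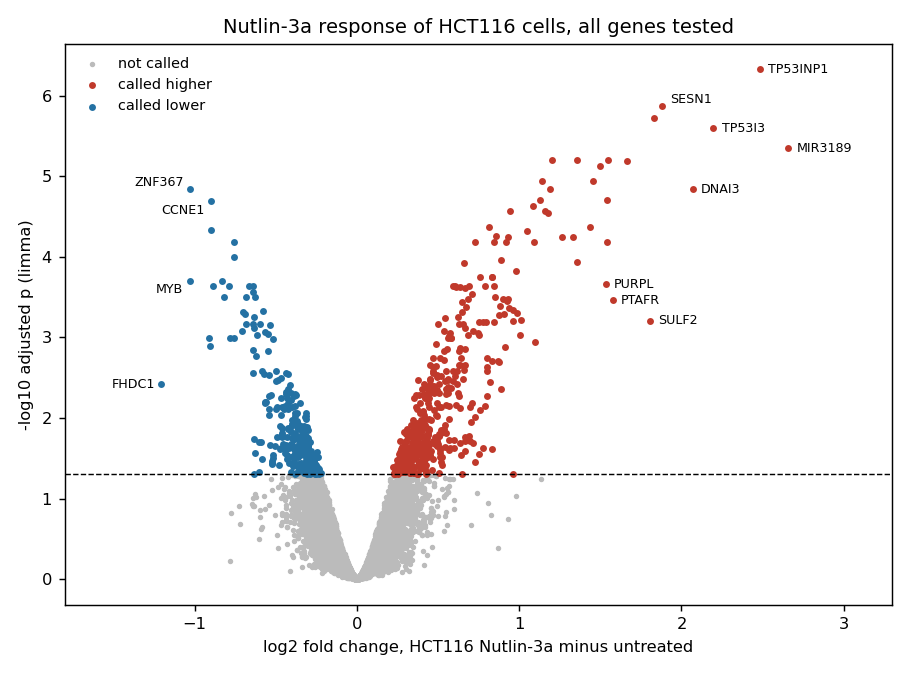
Each point is 1 of the 14118 genes, with the log2 fold change (HCT116 Nutlin-3a minus untreated) on the x axis and -log10 of limma's adjusted p on the y axis, and the dashed line marks an adjusted p of 0.05. The 435 genes called higher (red) reach 2.66, and the 286 called lower (blue) reach -1.20.

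Sequences of the loci to which the results below refer are shown here, from RefSeq on GRCh38.p14. MIR3189, the microRNA gene with the largest rise, lies inside GDF15 and gives a pair of mature microRNAs, shown with the seed (bases 2 to 8) in capitals. They are at chr19:18386570-18386594 and chr19:18386607-18386627, both on the plus strand, and their seeds differ.
hsa-miR-3189-5p: uGCCCCAUcugugcccuggguagga
hsa-miR-3189-3p: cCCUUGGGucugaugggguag

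Promoter windows run from 250 bases before to 50 bases after the first listed start of a gene, and 10568 of the 14118 genes had one. A p53 response element is a pair of half-sites of 10 bases (the p53 half-site consensus), here 0 to 13 bases apart and read on both strands. PURPL and PTCHD4 are shown because they were the only called genes with such a pair in this window, which 3 of the 10568 windows held (0.0284%). PTCHD4 was chosen for this after its values were seen. PURPL is on the plus strand at chr5:27472042-27472341, with its pair (capitals) 127 to 108 bases before the start. PTCHD4 is on the minus strand at chr6:48111148-48111447, with its pair in the last 20 bases before the start.
PURPL: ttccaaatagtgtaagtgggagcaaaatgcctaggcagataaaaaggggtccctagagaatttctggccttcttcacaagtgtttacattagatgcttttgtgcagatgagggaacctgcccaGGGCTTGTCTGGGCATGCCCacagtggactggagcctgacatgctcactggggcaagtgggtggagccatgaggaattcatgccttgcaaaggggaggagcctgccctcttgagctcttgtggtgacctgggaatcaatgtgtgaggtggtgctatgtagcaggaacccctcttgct
PTCHD4: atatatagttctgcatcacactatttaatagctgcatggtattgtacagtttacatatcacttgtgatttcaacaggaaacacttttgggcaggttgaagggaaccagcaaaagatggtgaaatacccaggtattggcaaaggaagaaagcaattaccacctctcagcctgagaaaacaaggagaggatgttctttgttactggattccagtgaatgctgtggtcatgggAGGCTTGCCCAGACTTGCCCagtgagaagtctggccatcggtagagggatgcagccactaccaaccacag

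ZNF367, CDC25A and E2F2 are shown as promoters of genes that fell and that hold an E2F motif in capitals on either strand. The letters searched were TTCCCGC, its variant TTGGCGC, the further variant TTCGCGC and the fourth, TTGCCGC. The complement of TTGGCGC can share its last letters with CCAAT, and the matches of CDC25A overlap each other. ZNF367 is on the minus strand at chr9:96418321-96418620 with 2 matches between 35 and 15 bases before the start. CDC25A is on the minus strand at chr3:48188368-48188667 with 2 matches between 43 and 34 bases before the start. E2F2 is on the minus strand at chr1:23531184-23531483 with 1 match, 41 to 35 bases before the start.
ZNF367: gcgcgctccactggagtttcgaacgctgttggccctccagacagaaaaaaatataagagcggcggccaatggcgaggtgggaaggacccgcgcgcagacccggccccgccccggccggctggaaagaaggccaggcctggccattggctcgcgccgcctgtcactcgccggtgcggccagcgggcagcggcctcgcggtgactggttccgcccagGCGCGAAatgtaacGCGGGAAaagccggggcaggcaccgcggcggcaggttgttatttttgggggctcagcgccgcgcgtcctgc
CDC25A: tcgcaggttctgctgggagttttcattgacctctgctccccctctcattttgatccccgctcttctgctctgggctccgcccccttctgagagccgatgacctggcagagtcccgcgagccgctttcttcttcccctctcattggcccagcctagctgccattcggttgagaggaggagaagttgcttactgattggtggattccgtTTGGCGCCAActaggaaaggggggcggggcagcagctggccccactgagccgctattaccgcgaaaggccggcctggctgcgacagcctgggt
E2F2: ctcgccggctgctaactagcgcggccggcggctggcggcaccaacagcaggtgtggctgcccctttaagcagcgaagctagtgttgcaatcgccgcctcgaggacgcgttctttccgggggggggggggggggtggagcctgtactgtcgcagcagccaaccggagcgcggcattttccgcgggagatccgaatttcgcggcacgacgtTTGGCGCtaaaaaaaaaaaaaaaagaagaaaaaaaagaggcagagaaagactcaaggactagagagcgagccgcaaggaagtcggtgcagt

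An E2F motif stood in 85 of 226 windows of genes called lower (37.6%), in 65 of 362 of genes called higher and in 1853 of 10568 of all tested genes (17.5%). A single p53 half-site was in 25 of 362 windows of genes called higher (6.91%), in 12 of 226 of genes called lower (5.31%) and in 636 of all tested genes (6.02%). Among the genes at least 2-fold higher it was in 4 of 27 windows (14.8%). CCAAT was in 43.1% of windows of genes called higher, 43.4% of genes called lower and 35.8% of all tested genes. The CHR motif (TTTGAA, or its variant with the letters TTCGAA, on either strand), known from mitotic genes, was in 9.39% of windows of genes called higher, 14.6% of genes called lower and 13.2% of all tested genes. These shares are descriptions of the letters in 300 bases and were not tested, and a window without a motif says nothing of binding elsewhere.

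Among genes listed as p53 targets the called changes were rises only, while uncalled members went either way. The lists were chosen with earlier results of these data known, so their counts are descriptions and not an independent test. Over 7 lists holding 108 measured genes, 57 were called higher and 0 lower, where 3.08% of all genes were called higher and 2.03% lower. The median log2 fold change was 0.40, beside -0.01 over all genes. By list, 9 of 11 feedback and regulator genes were higher, 7 of 9 cell cycle arrest genes, 7 of 11 apoptosis genes, 14 of 27 genes of metabolism and autophagy, 4 of 9 repair and nucleotide supply genes, 13 of 25 genes of secreted and membrane proteins, and 3 of 16 noncoding RNAs. The calls that remained without each of the 4 HCT116 arrays in turn numbered 7, 7, 5, 12, 4, 11 and 3 in the same order of lists.

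Genes that regulate p53 or feed back on it held some of the largest rises. TP53INP1, which promotes p53 phosphorylation and autophagy, had log2 values of 10.38 and 10.38 on the Nutlin-3a arrays, against 7.87 and 7.93 on the untreated arrays, 5.58-fold higher (2.48 ± 0.077, SE, limma adjusted p = 4.75e-07). DNAI3, a dynein intermediate chain known as a p53 target, had 7.79 and 7.93 on the Nutlin-3a arrays, against 5.75 and 5.84 on the untreated arrays, 4.20-fold higher (limma adjusted p = 1.46e-05). SUSD6, a membrane protein also known as a p53 target, had 8.17 and 8.33 on the Nutlin-3a arrays, against 6.47 and 6.70 on the untreated arrays, 3.18-fold higher. In each of them the treatments were separated by far more than the replicates differed. TRIAP1, an inhibitor of apoptosis at mitochondria, rose 1.97-fold (adjusted p = 0.000149), CCNG2 1.55-fold, the nuclease gene AEN 1.49-fold and CCNG1, a cyclin that acts with a phosphatase on MDM2, 1.37-fold. MDM4, a partner of MDM2 in p53 inhibition, changed by 0.30 and TP53INP2 by 0.03, and neither was called. ANKRD11 and TRIM22 were called less firmly: ANKRD11 lost its call without any 1 of the 4 HCT116 arrays (adjusted p up to 0.239) and TRIM22 without 3 of them (up to 0.165).

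Of the 9 measured arrest genes 7 rose, and all 7 stayed called without each HCT116 array. PLK3, a stress-activated polo-like kinase, had 9.70 and 9.72 on the Nutlin-3a arrays, against 8.24 and 8.30 on the untreated arrays, 2.71-fold higher (limma adjusted p = 4.21e-05). PLK2, its relative in centriole and S phase control, had 9.23 and 9.09 on the Nutlin-3a arrays, against 7.91 and 7.87 on the untreated arrays, 2.41-fold higher (limma adjusted p = 5.65e-05). The pairs of arrays did not overlap in either gene. E2F7, a repressor of E2F targets, rose 1.71-fold (adjusted p = 0.000637) and SFN, the 14-3-3 sigma protein that holds CDK1 in the cytoplasm, 1.61-fold (adjusted p = 0.000232). CEP85L rose 1.55-fold, PLXNB2 1.33-fold and ZNF385A, a p53 cofactor, 1.31-fold. GTSE1, a negative regulator of p53 in G2, changed by -0.13 and was not called.

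Of the 11 measured apoptosis genes 7 rose, among them genes of BH3-only proteins, BAX and the apoptosome. BBC3, which encodes PUMA, had 8.22 and 8.19 on the Nutlin-3a arrays, against 6.75 and 6.99 on the untreated arrays, 2.52-fold higher (limma adjusted p = 5.65e-05). APAF1, the scaffold that activates caspase 9, had 8.62 and 8.59 on the Nutlin-3a arrays, against 7.41 and 7.42 on the untreated arrays, 2.28-fold higher (limma adjusted p = 1.46e-05). Both sets of Nutlin-3a values were above all untreated values. TRAF4 rose 1.89-fold, BAX, which permeabilises the mitochondrial outer membrane, 1.78-fold, and PMAIP1, which encodes NOXA, 1.63-fold (adjusted p = 0.000293). PIDD1 and IER5 were higher by 0.51 and 0.43, and each lost its call without 2 of the HCT116 arrays (adjusted p up to 0.112 and up to 0.0537). BID changed by -0.08, BIK by 0.34, BCL2L1 by 0.13 and TP53AIP1 by -0.06, and these were not called. Outside the list, and chosen after their values were seen, BCL2L11, the BH3-only gene for BIM, was called lower by -0.39 and kept its call without each HCT116 array, and BOK was called lower by -0.32 and did not keep it.

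Metabolic and autophagy targets held many of the larger rises. TP53I3, a quinone oxidoreductase linked to reactive oxygen species, had 9.80 and 9.65 on the Nutlin-3a arrays, against 7.59 and 7.46 on the untreated arrays, 4.59-fold higher (limma adjusted p = 2.55e-06). SESN1, a sestrin that restrains mTORC1, had 8.84 and 8.76 on the Nutlin-3a arrays, against 6.93 and 6.91 on the untreated arrays, 3.69-fold higher (limma adjusted p = 1.35e-06). ACER2, an alkaline ceramidase of the Golgi, had 9.58 and 9.62 on the Nutlin-3a arrays, against 7.70 and 7.84 on the untreated arrays, 3.55-fold higher (limma adjusted p = 1.88e-06). Each gene's pairs were far apart. Further inhibitors of mTORC1 signalling rose: SESN2, the leucine-sensing sestrin, 2.92-fold and DDIT4, known as REDD1, 2.82-fold. TIGAR, a fructose bisphosphatase that lowers glycolytic flux, rose 2.26-fold, DRAM1, a lysosomal membrane protein of autophagy, 2.21-fold and ABHD4, a lipase, 2.07-fold. CMBL, a hydrolase, rose 1.81-fold, PANK1, a kinase of coenzyme A synthesis, 1.77-fold and NADSYN1, an NAD synthetase, 1.76-fold. GPX1, a glutathione peroxidase, rose 1.44-fold (0.52 ± 0.073, adjusted p = 0.00304). TP53I11 and PGF lost their calls without at least 3 of the HCT116 arrays (adjusted p up to 0.167 and up to 0.145). Uncalled members included SESN3 (0.38), SAT1 (0.38), FOXO3 (0.31, with -0.33 at its second probe set) and SCO2 (-0.19).

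Repair and nucleotide supply showed a narrow set of rises. RPS27L, a ribosomal protein paralog, had 7.81 and 7.83 on the Nutlin-3a arrays, against 6.78 and 6.61 on the untreated arrays, 2.18-fold higher (limma adjusted p = 1.95e-05). RRM2B, the p53-inducible ribonucleotide reductase subunit, had 10.28 and 10.36 on the Nutlin-3a arrays, against 9.21 and 9.25 on the untreated arrays, 2.13-fold higher (limma adjusted p = 6.55e-05). In both genes the values did not overlap. ASCC3, a helicase, rose 1.66-fold and TRIM32, a ubiquitin ligase, rose by 0.58 on the log2 scale. PCNA, a sliding clamp of replication and repair, changed by 0.26 and was not called. RRM1 and RRM2, the other subunits of ribonucleotide reductase, changed by 0.00 and -0.17 and were not called.

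Among secreted and membrane proteins, rises covered a cytokine, a sulfatase and surface receptors. SULF2, which trims heparan sulfate, had 9.37 and 9.45 on the Nutlin-3a arrays, against 7.50 and 7.70 on the untreated arrays, 3.50-fold higher (limma adjusted p = 0.000625), while its second, dimmer probe set changed by 0.00. GDF15, a stress cytokine, had 12.88 and 12.84 on the Nutlin-3a arrays, against 11.39 and 11.24 on the untreated arrays, 2.92-fold higher (limma adjusted p = 2e-05). PTAFR, the receptor for platelet-activating factor, had 7.73 and 7.51 on the Nutlin-3a arrays, against 5.90 and 6.19 on the untreated arrays, 2.98-fold higher (limma adjusted p = 0.000344). The spread was wider in PTAFR than in GDF15, and in neither did the treatments overlap. TLR3, the endosomal sensor of double-stranded RNA, had 8.15 and 8.25 on the Nutlin-3a arrays, against 6.89 and 6.80 on the untreated arrays, 2.56-fold higher (1.36 ± 0.068, limma adjusted p = 6.37e-06). PLXNB3, EPHA2, NOTCH1, LIF, UNC5B and HBEGF were called higher, by 1.35-fold to 1.74-fold, and so was ISCU, a list member that encodes a mitochondrial scaffold of iron-sulfur clusters and is neither secreted nor a membrane protein. CSF1 and CD82 lost their calls without 4 and 2 of the HCT116 arrays (adjusted p up to 0.12 and up to 0.191). THBS1, IGFBP3 and CX3CL1 changed by -0.25, -0.14 and -0.07 and were not called.

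Noncoding RNAs linked to p53 were called in 3 of 16 cases. MIR3189, whose mature sequences are shown above, had 8.25 and 8.11 on the Nutlin-3a arrays, against 5.49 and 5.56 on the untreated arrays, 6.32-fold higher (2.66 ± 0.12, limma adjusted p = 4.51e-06). Its probe set lies within GDF15, and precursor, mature microRNA and host transcript cannot be told apart by it. PURPL, a long noncoding RNA that holds down p53 (promoter above), had 7.31 and 7.02 on the Nutlin-3a arrays, against 5.63 and 5.62 on the untreated arrays, 2.90-fold higher (limma adjusted p = 0.000218). MIR22HG rose 1.54-fold (adjusted p = 0.00373). MIR34A, the microRNA gene best known as a p53 target, had 3.78 and 3.85 on the Nutlin-3a arrays, against 3.73 and 3.61 on the untreated arrays, a difference of 0.14 ± 0.079 that was not called (limma adjusted p = 0.364). The MIR34A values on all HCT116 arrays lay below the array medians (4.97 to 5.05) and near the median of microRNA genes (3.68). A change at so low a level may not be read. MIR34B changed by 0.09, MALAT1 by 0.08, GAS5 by 0.08 and MIR17HG by -0.30, and none of these was called.

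**Figure D2:**
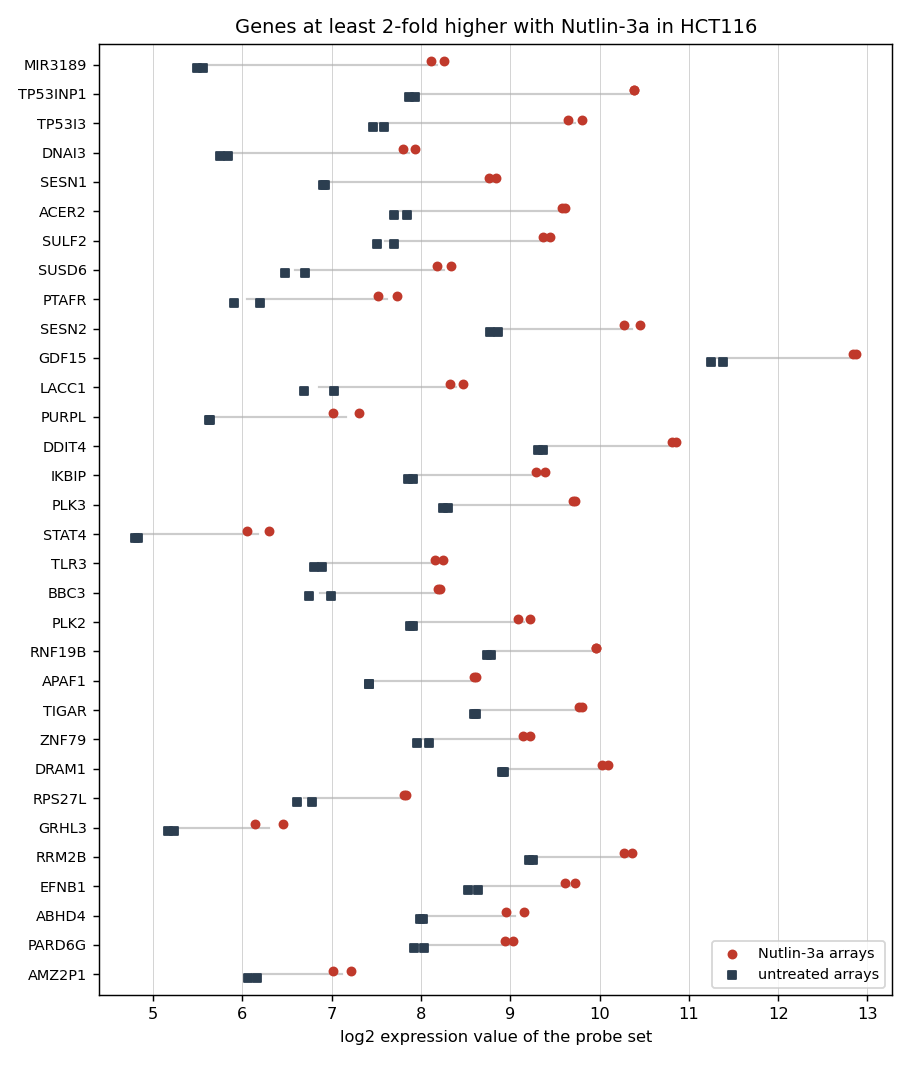
The x axis is the log2 expression value of a probe set and each row is 1 of the 32 genes called at least 2-fold higher, with the 2 Nutlin-3a arrays as circles, the 2 untreated arrays as squares and a grey line between the group means. In every row both circles lie right of both squares.

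The remaining genes of the 32 belonged to other functions. IKBIP, which encodes an IKK-interacting protein, had 9.29 and 9.39 on the Nutlin-3a arrays, against 7.86 and 7.91 on the untreated arrays, 2.75-fold higher (limma adjusted p = 1.14e-05). LACC1, an enzyme of macrophage metabolism, had 8.47 and 8.33 on the Nutlin-3a arrays, against 6.69 and 7.03 on the untreated arrays, 2.91-fold higher (limma adjusted p = 6.55e-05). STAT4, a transcription factor of interleukin-12 signalling, had 6.30 and 6.05 on the Nutlin-3a arrays, against 4.80 and 4.84 on the untreated arrays, 2.56-fold higher (limma adjusted p = 0.000117). The treatments did not overlap in these genes, of which LACC1 and STAT4 are best known from immune cells. RNF19B, a ubiquitin ligase, rose 2.30-fold, ZNF79 2.23-fold, GRHL3, a transcription factor of epithelial barriers, 2.14-fold, and EFNB1, a ligand of Eph receptors, 2.13-fold. PARD6G, a polarity protein, rose 2.02-fold and the transcribed pseudogene AMZ2P1 2.01-fold. PTCHD4, a patched-domain protein outside the 32 (promoter above), had 5.65 and 5.81 on the Nutlin-3a arrays, against 5.08 and 4.91 on the untreated arrays, 1.66-fold higher (limma adjusted p = 0.00977), and lost its call without 2 of the HCT116 arrays (up to 0.0813).

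Genes of DNA replication and the cell cycle made up a part of the falls. Over 9 measured lists of proliferation and repair with 233 genes, 70 were called lower and 2 higher (E2F7 and LMNA), and the median log2 fold change was -0.16, beside -0.01 over all genes. Over all genes 2.03% were called lower and 3.08% higher. The 70 were among the 286 genes called lower, so most falls lay outside the lists, which held only 233 of the 14118 genes tested. These lists too were chosen with earlier results of these data known. A list of 58 replication-dependent histone genes had 0 measured members.

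Regulators of the G1/S transition held the larger falls. Of 29 measured genes of E2F, cyclin E and G1/S control, 14 were lower and 1 (E2F7) higher, with a median of -0.19, and 9 of the 14 stayed lower without each HCT116 array. CCNE1, the cyclin E that activates CDK2, had 9.66 and 9.60 on the Nutlin-3a arrays, against 10.55 and 10.51 on the untreated arrays, lower by -0.90 ± 0.056 (limma adjusted p = 2.02e-05). CDC25A, the phosphatase that activates CDK2 (promoter above), had 8.55 and 8.55 on the Nutlin-3a arrays, against 9.38 and 9.38 on the untreated arrays, lower by -0.83 ± 0.074 (limma adjusted p = 0.000201). ZNF367, a zinc finger factor (promoter above), had 8.41 and 8.42 on the Nutlin-3a arrays, against 9.49 and 9.39 on the untreated arrays, lower by -1.03 ± 0.061 (limma adjusted p = 1.46e-05). In all of them every Nutlin-3a value lay below every untreated value. CCNE2 fell by 0.82, E2F2 by 0.70, the repressor E2F8 by 0.68, the replication ubiquitin ligase factor DTL by 0.64, the APC/C inhibitor FBXO5 by 0.64 and CDCA7 by 0.62. E2F1, the activator E2F, was lower by -0.54 (adjusted p = 0.00534) and lost its call without 1 HCT116 array (up to 0.0581). RBL1, CCNA2, CDCA7L and MYBL2 were lower by -0.25 to -0.32 and each lost its call without at least 3 HCT116 arrays (adjusted p up to 0.201). The D cyclins and their kinases were not called: CCND1 changed by -0.06, CDK4 by -0.02, CDK6 by -0.07 and RB1 by 0.09.

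Origin licensing and fork genes fell together by small amounts. Of 24 measured licensing genes 15 were lower and 0 higher (median -0.30), and of 14 fork genes 8 were lower and 0 higher (median -0.29). Without each HCT116 array in turn, 4 licensing and 3 fork genes stayed called. MCM10, a factor of replication initiation, had 10.03 and 10.04 on the Nutlin-3a arrays, against 10.68 and 10.64 on the untreated arrays, lower by -0.63 ± 0.060 (limma adjusted p = 0.000311). CDT1, which loads the MCM helicase, had 9.33 and 9.32 on the Nutlin-3a arrays, against 9.82 and 9.89 on the untreated arrays, lower by -0.53 (limma adjusted p = 0.00523). No values overlapped in these genes. GINS3 and GINS2, of the CMG helicase, fell by 0.52 and 0.42. CLSPN, the claspin that links ATR to CHK1, fell by 0.64 (-0.06 at its second probe set), UHRF1, which maintains DNA methylation, by 0.46, and SLBP, which binds histone mRNA, by 0.41. CDC6, MCM2, MCM3, MCM4 and MCM6 were lower by -0.25 to -0.36, and each lost its call without at least 2 HCT116 arrays (adjusted p up to 0.201). MCM5 (-0.13), MCM7 (-0.16) and CDC45 (-0.10) were not called.

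Mitotic genes moved less. Of 37 measured G2/M regulators 7 were lower and 0 higher (median -0.15), and of 50 kinesin, centromere and cohesin genes 10 were lower and 0 higher (median -0.17). Only 1 of each list stayed called without each HCT116 array. WEE1, the kinase that inhibits CDK1, had 10.18 and 10.13 on the Nutlin-3a arrays, against 10.69 and 10.61 on the untreated arrays, lower by -0.50 (limma adjusted p = 0.00261). HJURP, the chaperone of the centromeric histone CENPA, had 10.40 and 10.40 on the Nutlin-3a arrays, against 10.82 and 10.84 on the untreated arrays, lower by -0.42 (limma adjusted p = 0.00288). The treatments did not overlap in either gene. CDK1 (0.09), CCNB1 (-0.14), PLK1 (-0.22), TOP2A (0.04) and MKI67 (-0.02) were not called. Of 16 lamin and nuclear envelope genes LMNA was higher and LMNB1 and LBR lower, and none of these stayed called without each HCT116 array (adjusted p up to 0.179). Of 23 genes of nucleotide synthesis 3 were lower and 0 higher, and 0 stayed called.

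Repair genes that act with replication fell in part. Of 23 measured genes of homologous recombination and the Fanconi pathway 7 were lower and 0 higher (median -0.14), and EXO1 and BARD1 stayed called without each HCT116 array. EXO1, a nuclease of end resection and mismatch repair, fell by 0.67 (limma adjusted p = 0.00023), and BARD1, the partner of BRCA1, fell by 0.58 (limma adjusted p = 0.000466). Of 18 mismatch and excision repair genes 4 were lower and 0 higher, and 1 stayed called. This was MSH6, a protein of mismatch recognition, with 8.39 and 8.38 on the Nutlin-3a arrays, against 9.10 and 9.18 on the untreated arrays, lower by -0.76 ± 0.061 (limma adjusted p = 0.000102). Its treatments did not overlap. MSH3 changed by 0.12 and PMS2 by -0.29, and neither was called.

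Among the 20 largest falls were also genes outside these lists. FHDC1, a formin of Golgi and cilia, had 4.04 and 4.63 on the Nutlin-3a arrays, against 5.68 and 5.40 on the untreated arrays, lower by -1.20 ± 0.17 (limma adjusted p = 0.0038, and 0.0694 with HCT116 arrays fitted alone). MYB, a transcription factor of progenitor cells in colon crypts and blood, had 5.99 and 6.09 on the Nutlin-3a arrays, against 7.10 and 7.04 on the untreated arrays, lower by -1.03 ± 0.091 (limma adjusted p = 0.000201). The arrays of FHDC1 spread more than those of MYB, and neither gene's treatments overlapped. Both Nutlin-3a values of FHDC1 lay below the array medians (4.97 to 5.05), and the size of a fall to so low a level may not be read. TTPA, which carries vitamin E, fell by 0.91, LRRC26, an auxiliary subunit of BK potassium channels, by 0.90, and DLX1, a homeobox factor, by 0.89. CBX2, a Polycomb subunit, fell by 0.79, ZBTB14 by 0.78, JPH1, a junctophilin, by 0.76, NRTN, a growth factor for neurons, by 0.76, KLF11 by 0.71, MBOAT1 by 0.69 and MACIR by 0.68. The antisense RNA ST3GAL6-AS1 fell by 0.91.

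**Figure D3:**
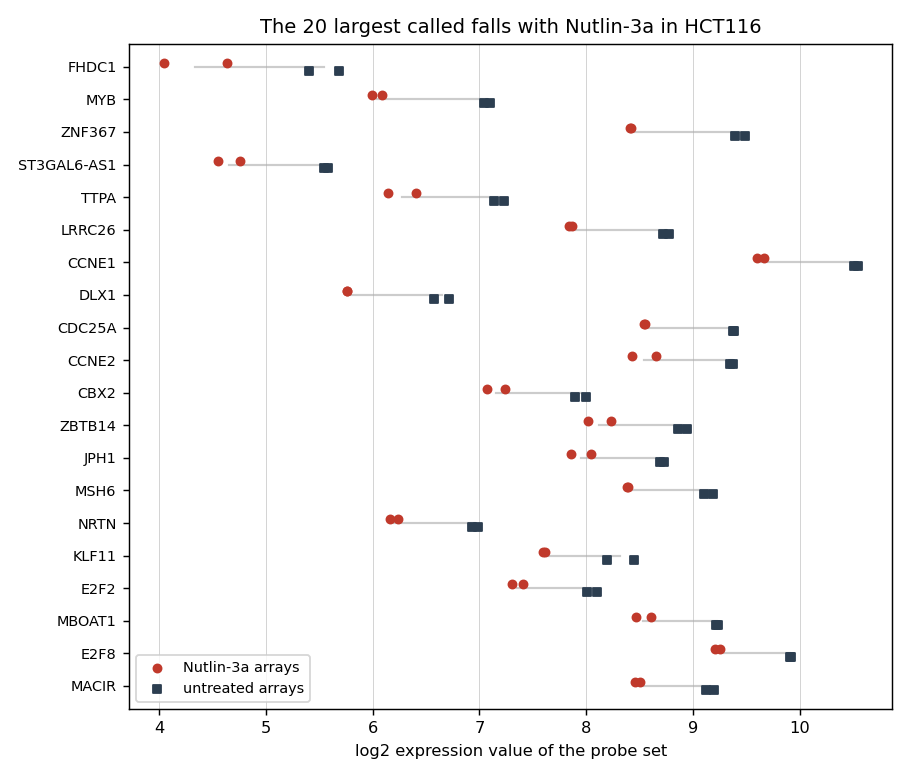
The x axis is the log2 expression value of a probe set and each row is 1 of the 20 largest called falls, with the 2 Nutlin-3a arrays as circles, the 2 untreated arrays as squares and a grey line between the group means. In every row both circles lie left of both squares.

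Lists of other functions are given next, and their counts stand beside 3.08% of all genes called higher and 2.03% called lower. In the integrated stress list 7 of 19 measured genes were higher and 0 lower (median 0.24), and SESN2, DDIT4, DDIT3 and ASNS stayed called without each HCT116 array. SESN2 and DDIT4 are in the p53 metabolism list too. DDIT3, which encodes CHOP, had 6.38 and 6.30 on the Nutlin-3a arrays, against 5.32 and 5.53 on the untreated arrays, 1.89-fold higher (limma adjusted p = 0.00131). ASNS, asparagine synthetase, had 9.33 and 9.25 on the Nutlin-3a arrays, against 8.65 and 8.71 on the untreated arrays, 1.53-fold higher (limma adjusted p = 0.000239). The treatments did not overlap in either gene, and ATF4, a factor known to drive both, changed by 0.14 and was not called. ATF3 was 0.74 higher without a call.

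MYC and ribosome biogenesis genes were called in 2 of 21 cases, both antagonists of MYC. MXD1 had 7.93 and 7.79 on the Nutlin-3a arrays, against 6.80 and 7.08 on the untreated arrays, 1.90-fold higher (limma adjusted p = 0.000357), with no overlap. MXD4 rose 1.51-fold (limma adjusted p = 0.00259), and MYC changed by 0.03 without a call. Among 30 immediate early and MAPK feedback genes 3 were higher and 1 lower, of which EGR1 (1.79-fold, with -0.04 at its second probe set) and DUSP14 (1.83-fold) stayed called without each HCT116 array, while FOS changed by -0.10 and JUN by 0.24. Among 35 interferon and innate sensing genes 5 were higher and 0 lower, and TLR3 and TRIM5 (1.47-fold) stayed called. ISG15 (0.05), IFIT1 (-0.35), IFIT3 (0.08) and IRF7 (-0.13) were not called, and TAPBP was 0.98 higher without a call. Among 20 NF-kB and cytokine genes 2 were higher (IKBIP and PTGS2), and PTGS2 lost its call without 3 HCT116 arrays (adjusted p up to 0.124). CXCL8 changed by 0.09 and RELA by -0.01, and these were not called.

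In the remaining lists, calls were scattered. Over all genes 5.11% were called, beside 5.88% of the Wnt, Notch and intestinal identity list, 9.09% of the antioxidant list and 10.5% of the keratin and junction list. In lists of this size such shares are not read as results about the lists. Lysosome and autophagy genes had 6 of 31 higher and 0 lower, and LAMP3 (1.75-fold) alone stayed called without each HCT116 array. Antioxidant genes had 2 of 22 higher, of which GPX1 stayed. Wnt, Notch and intestinal identity genes had 2 of 34 higher, of which NOTCH1 stayed, with LGR5 at -0.11, AXIN2 at -0.21 and CDX2 at 0.06 uncalled. Keratin and junction genes had 3 of 38 higher and 1 lower, of which GRHL3 stayed. Sterol synthesis had 2 of 15 higher and 1 lower, and mesenchymal genes had 1 of 11 lower, VIM (-0.46, with -0.09 and 0.06 at its other probe sets), and 0 of these stayed. In glycolysis 0 of 9 and in housekeeping 0 of 7 genes were called, and GAPDH changed by -0.03. Among markers of other cells, 0 of 3 leukocyte genes and 1 of 6 fibroblast and endothelial genes were called. This was THY1, lower by -0.32 and without its call when any 1 HCT116 array was left out (adjusted p up to 0.138).

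**Figure D4:**
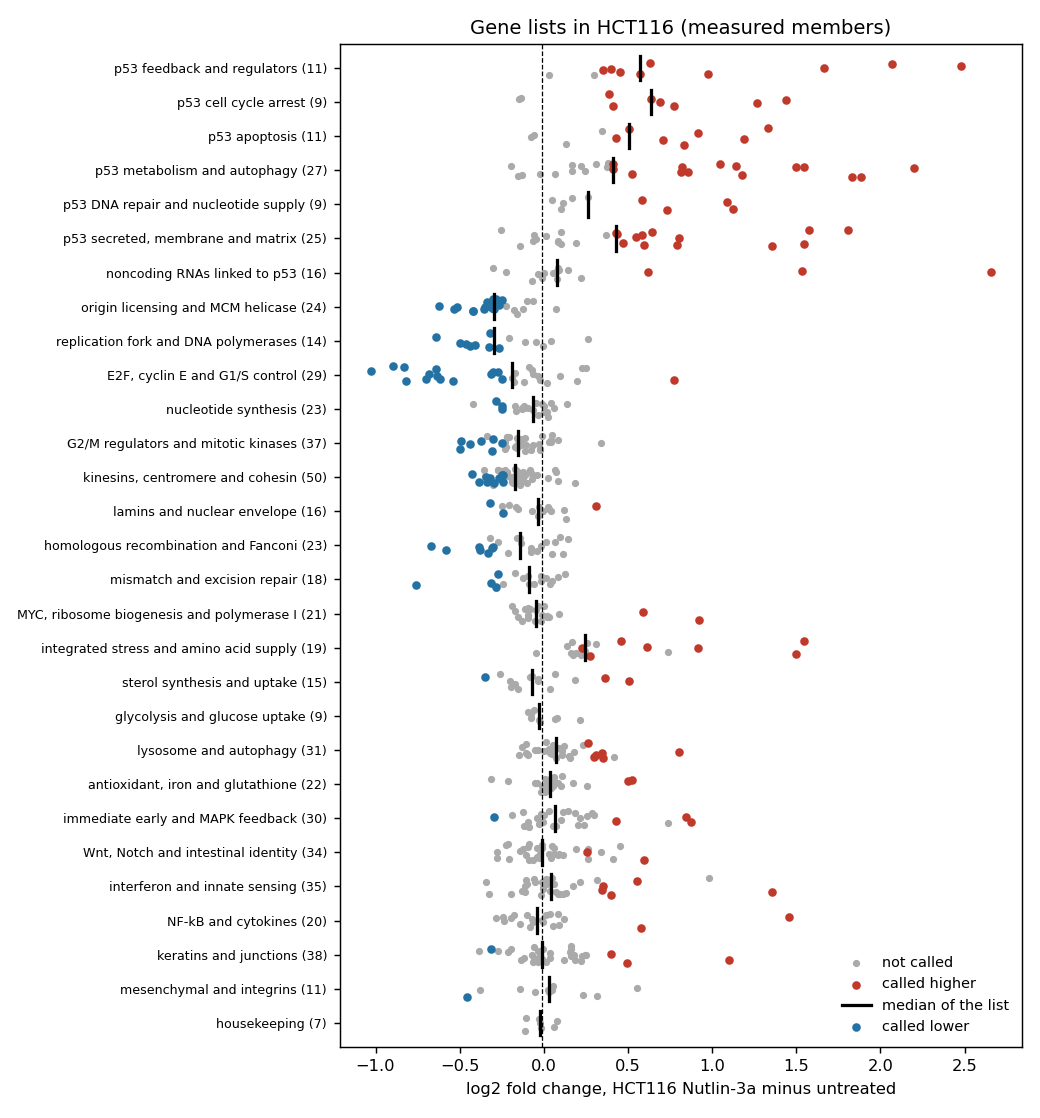
Each point is a measured member of a gene list (number of members in brackets), placed by its log2 fold change, HCT116 Nutlin-3a minus untreated. Red and blue points were called higher and lower, grey points were not called, black bars are list medians and the dashed line is the median of all genes, -0.01. The p53 lists reach 2.66 and the G1/S list reaches -1.03.

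Long noncoding RNA genes gave 20 higher and 8 lower of 1359, microRNA genes 3 higher and 4 lower of 611 and pseudogenes 6 higher and 3 lower of 382. Of these classes 2.06%, 1.15% and 2.36% were called, beside 5.11% of all genes. The classes were dim, with median log2 levels of 4.77, 3.68 and 4.81, against 7.03 for protein-coding genes. Of all genes with a mean under 5, 1.00% were called, so these shares are not read as a weaker noncoding response. LINC00294 had 8.90 and 8.90 on the Nutlin-3a arrays, against 8.09 and 8.19 on the untreated arrays, 1.69-fold higher (limma adjusted p = 0.000177). Its treatments did not overlap. The antisense RNA MNX1-AS1 fell by 0.50 (limma adjusted p = 0.0035). Of the 7 microRNA genes called, MIR3189 alone stayed called without each HCT116 array. MIR1206 and MIR1289-1 were higher by 0.96 and 0.43, and MIR93, MIR1237, MIR802 and MIR412 lower by -0.63, -0.57, -0.46 and -0.30, each without its call when at least 2 of the HCT116 arrays were left out in turn (adjusted p up to 0.26). MIR93 lies in an intron of MCM7, which changed by -0.16 and was not called.

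The 32 genes at least 2-fold higher in HCT116 cells were then set beside the responses of the other lines, each measured against its own untreated arrays. In SW48 cells 24 of them were called higher, where 1.38% of all genes were, and 18 were at least 2-fold higher, where 0.198% of all genes were. In RKO cells 28 were called higher (1.23% of all genes) and 18 were at least 2-fold higher (0.163% of all genes). In all 3 lines 22 were called higher (0.545% of all genes). A call in 1 line and not in another does not show that the responses differ, so the HCT116 response was tested against the mean of the SW48 and RKO responses. That difference was called for 30 genes (0.212%), with 19 higher in HCT116 cells (0.135%) and 11 lower (0.0779%), and 28 of the 30 were also called in the HCT116 response. Leaving out any 1 of the 12 arrays lowered the count, to between 2 and 17 calls, and TLR3 and ZBTB5 kept theirs in all 12 such fits. With the replicate number as a block, or without moderation of the variances, 0 genes were called in limma's test of this difference, TLR3 and ZBTB5 included, with 1850 and 1805 genes at an unadjusted p under 0.05. The fewest were without HCT116 Nutlin-3a replicate 1 (2 calls), and without HCT116 untreated replicate 1 there were 3.

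Of the 19 genes with a higher value in HCT116 cells, those that kept their call in most fits are given first. TLR3 changed by 1.36 in HCT116, 0.11 in SW48 and 0.45 in RKO cells, a difference of 1.07 ± 0.084 (limma adjusted p = 0.00289). ZBTB5, a BTB zinc finger protein, changed by 0.93 in HCT116, -0.15 in SW48 and 0.13 in RKO cells, a difference of 0.94 ± 0.084 (limma adjusted p = 0.00488). Both other lines lay below HCT116 in these genes. PTAFR changed by 1.58 in HCT116, 0.04 in SW48 and 0.03 in RKO cells, a difference of 1.54 ± 0.19, and kept its call in 7 of the 12 fits without 1 array. STAT4 changed by 1.36 in HCT116, -0.13 in SW48 and 0.17 in RKO cells (difference 1.34 ± 0.14, and 1.21 to 1.46 without any 1 array). Its mean over all 12 arrays was 4.55, below the array medians (4.97 to 5.05) and below every HCT116 value. The SW48 and RKO values were thus low, and a change at so low a level may not be read. APAF1 changed by 1.19 in HCT116, 0.03 in SW48 and 0.77 in RKO cells (difference 0.79 ± 0.085, call kept in 10 of 12), so RKO lay between the others. EGR1 changed by 0.84 in HCT116, 0.12 in SW48 and 0.18 in RKO cells (call kept in 9 of 12). PLK2 changed by 1.27 in HCT116, 0.58 in SW48 and 0.06 in RKO cells, and TP53I3 by 2.20, 1.10 and 1.38 in the same lines, each with its call kept in 7 of 12 fits. The fits without calls reached adjusted p values of up to 0.0923 for PTAFR, APAF1, EGR1, PLK2 and TP53I3 and up to 0.0793 for STAT4.

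In 11 genes the HCT116 value lay below those of both other lines, either as a fall or as a missing rise. MIR34A changed by 0.14 in HCT116, 1.45 in SW48 and 0.19 in RKO cells, a difference of -0.68 ± 0.096 (limma adjusted p = 0.0314) that kept its call in 1 of 12 fits (adjusted p up to 0.14). The rise of MIR34A in SW48 cells was called (limma adjusted p = 1.97e-05) and the changes in HCT116 and RKO cells were not. NKX2-5, a homeobox factor, changed by -0.30 in HCT116, 0.45 in SW48 and 0.30 in RKO cells, a difference of -0.68 ± 0.084 that kept its call in 6 of 12 fits (up to 0.0975). ST3GAL6-AS1 changed by -0.91 in HCT116, 0.15 in SW48 and 0.08 in RKO cells, with its call kept in 3 of 12 fits (up to 0.111). Of the G1/S genes, 0 were called in this difference: CCNE1 changed by -0.90 in HCT116, -0.67 in SW48 and -0.47 in RKO cells.

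**Figure D5:**
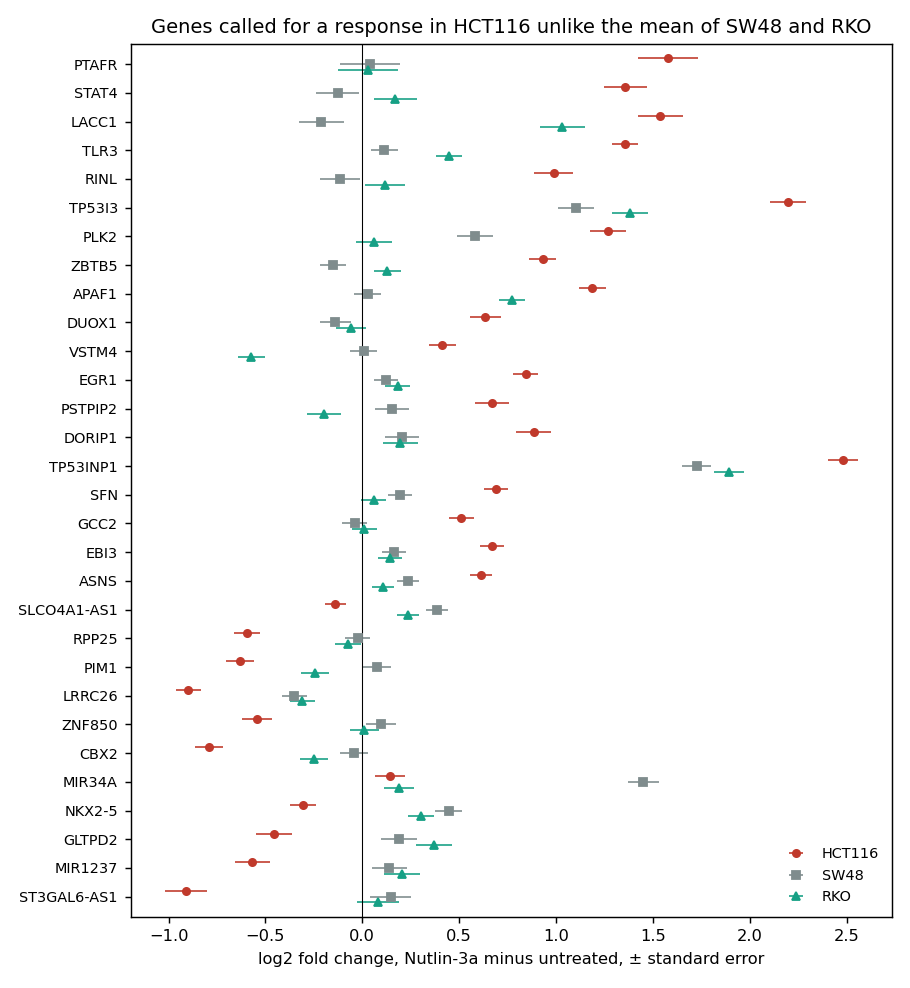
Each row is 1 of the 30 genes called in the difference, and the x axis is the log2 fold change, Nutlin-3a minus untreated, in HCT116 (circles), SW48 (squares) and RKO cells (triangles) with standard errors as bars. A gene's standard error comes from limma's fit of all arrays and is the same in each line, so a bar is not that line's own spread. HCT116 lies right of both other lines in the 19 upper rows and left of both in the 11 lower rows.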

How the data were processed

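The deposited log2 expression values were used as the authors gave them, 1 per probe set and array. Per the submitters' processing notes they were made with GCOS, and its version, background correction and normalization are not given in the sources used. No source names the log base, and base 2 was inferred from values running between 2.22 and 13.45. The platform's annotation gave 1 symbol to 14530 of 37270 probe sets (39.0%), several to 0 and none to 22740. All 14530 gene numbers were found in the RefSeq gene table of GRCh38.p14, which changed 0 symbols. For 395 genes with several probe sets, the brightest by its mean over all arrays was kept. Dim probe sets were not filtered out. Coordinates are those of the RefSeq sequences, since probe sets carry none here.

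All 12 arrays entered a single limma 3.58.1 model (R 4.3.3) of 6 group means (6 residual and 3.71 prior degrees of freedom), with Benjamini-Hochberg adjustment over 14118 genes and a threshold of 0.05. The contrasts were HCT116 Nutlin-3a minus HCT116 untreated, and that response minus the mean of the SW48 and RKO responses. The scripts were tested on simulated data. The members and the 34 gene lists were chosen with earlier results of these data known. Genes were named by rule: every called change of at least 2-fold, the 20 largest falls, called list members with uncalled ones as values, the largest called noncoding changes, and the largest called differences between lines. Alternatives covered scaling, arrays fitted, moderation, dim genes, probe sets, thresholds and each array left out. No batch or scan date is given, so line and any batch that follows it cannot be told apart. The number of arrays limits the precision.

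The replicate numbers were checked as pairs: deviations of same-numbered HCT116 arrays from their group means correlated at 0.055, those of SW48 arrays at -0.039 and those of RKO arrays at -0.055. No block was therefore used in the main fit. With 2 arrays per group this check cannot exclude that same-numbered samples were matched.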

Additional observations from a re-analysis of the deposited data

Results flagged for a closer look

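The test of the difference between the HCT116 response and the mean of the SW48 and RKO responses called 30 genes (limma, adjusted p under 0.05, n = 2 arrays per group). Each value is the log2 fold change in HCT116 cells minus the mean of those in SW48 and RKO cells. The response was higher in HCT116 cells for 19 genes, with differences of PTAFR 1.54, STAT4 1.34, LACC1 1.13, TLR3 1.07, RINL 0.99, TP53I3 0.95, PLK2 0.94, ZBTB5 0.94, APAF1 0.79, DUOX1 0.73, VSTM4 0.70, EGR1 0.69, PSTPIP2 0.69, DORIP1 0.68, TP53INP1 0.67, SFN 0.56, GCC2 0.52, EBI3 0.51 and ASNS 0.44. It was lower in HCT116 cells for 11 genes, with differences of ST3GAL6-AS1 -1.02, MIR1237 -0.74, GLTPD2 -0.73, NKX2-5 -0.68, MIR34A -0.68, CBX2 -0.64, ZNF850 -0.60, LRRC26 -0.57, PIM1 -0.55, RPP25 -0.55 and SLCO4A1-AS1 -0.45. A difference from the mean of 2 lines need not be particular to HCT116 cells: MIR34A changed by 0.14 in HCT116, 1.45 in SW48 and 0.19 in RKO cells. The mean over all 12 arrays lay below the array medians (4.97 to 5.05) for STAT4 (4.55), DORIP1 (4.71), SLCO4A1-AS1 (4.40), ST3GAL6-AS1 (4.31) and MIR34A (4.17). PSTPIP2 had 8.86 and 8.95 on the untreated HCT116 arrays but a mean of 5.60 over all 12 arrays, so it was far dimmer in the other lines. Changes at low levels may not be read. TLR3 and ZBTB5 kept their calls without each of the 12 arrays in turn, and every other gene of the 30 lost its call in at least 2 of those fits.

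Probe sets without a gene symbol in the annotation were not part of the comparisons. In a limma fit adjusted over all 37270 probe sets, 196 of these 22740 were called higher on the HCT116 Nutlin-3a arrays than on the untreated arrays and 80 lower, and 36 of those called higher were at least 2-fold higher. They are unnamed here, so their genes are not given.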

How the results depend on the processing

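The count of genes called in the HCT116 response, 721 in the fit of all arrays, was 208 with HCT116 arrays fitted alone, 357 with the replicate number as a block, 427 with p-values adjusted over all probe sets, 274 at an adjusted p under 0.01, 244 with a change of at least 0.5 also required, and 1228 where the prior followed intensity and was made robust. Leaving out 1 array gave 260 to 692 calls. The count for the difference from the other lines, 30, was 0 with the replicate block and 0 without moderation of the variances (limma, with 1850 and 1805 genes at an unadjusted p under 0.05), 2 at an adjusted p under 0.01, 14 over all probe sets, 49 with genes of a mean under 5 left out, 121 with that prior, and 2 to 17 with 1 array left out. The other alternatives stayed within 1.5 times: quantile normalization gave 782 and 29 calls, centring each array on its median 649 and 37, and averaging a gene's probe sets 688 and 25. None of the 721 called genes changed sign in any of the 25 alternatives, and none of the 30 differences did in those that give one. For the HCT116 response this was mostly fixed in advance. Many alternatives leave the fold change as it is, and leaving out 1 HCT116 array cannot reverse a gene whose treatments do not overlap. A sign could change only where arrays were rescaled or probe sets averaged. The replicate numbers showed no shared deviation over genes, but the labels do not say whether same-numbered samples were matched. The calls lost under the block are therefore a limit of these counts. Calls were fewer among dim genes: 1.00% of 3991 genes with a mean under 5 were called, 3.31% of 3991 from 5 to 7, 8.57% of 3546 from 7 to 9 and 9.46% of 2590 above. The causes of these shifts were not tested.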

Other observations

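Genes with more than 1 named probe set gave a second reading of the same locus. There were 33 such genes with a call at any probe set, and their 34 other probe sets were dimmer (median mean level 5.38) than the ones used (7.84). The probe sets used were called in 29 of the 33 genes, and 5 of the 34 others were called. A call at any probe set admitted a gene to the 33, out of 395 genes with several probe sets. These counts were therefore partly fixed in advance and do not measure how often probe sets concur. FBXO22, a substrate receptor of a ubiquitin ligase and a known p53 target, was the only gene called by both in the same direction, with log2 fold changes of 0.61 and 0.54. FOXO3, a forkhead factor of stress resistance, changed by 0.31 without a call at the probe set used and by -0.33 with a call at its other one. RHOBTB2 likewise went both ways, by -0.30 without a call and by 0.52 with one. GAS6-AS1 (0.42 and 0.57) and NRG2 (-0.02 and -0.34) were also called at the other probe set only. These adjusted p values come from limma over all named probe sets.

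MATR3, an RNA-binding protein of the nuclear matrix, had 9.92 and 9.89 on the Nutlin-3a arrays, against 9.81 and 9.86 on the untreated arrays, a difference of 0.07 ± 0.053 that was not called (limma adjusted p = 0.546). The genes nearest the threshold were XRCC3 (-0.31) and MIR1206 (0.96), called at limma adjusted p values of 0.0497, and GINS1 (-0.29) and GIP (-0.35), which were not called at 0.05 and 0.0505.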
